A study of Mus musculus with 68 samples.

Results

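The semaphorins, neuropilins and plexins described here are 9 genes of axon guidance: the secreted semaphorins Sema3a, Sema3c, Sema3d and Sema3e, the membrane-bound semaphorin Sema5a, the neuropilins Nrp1 and Nrp2, and the A-type plexins Plxna2 and Plxna4. They were chosen with earlier results of these data known, and were taken by symbol from the array annotation. Each of the 9 had a single transcript cluster, the probe set that stands for a transcript. They are 9 of 19938 genes tested. The study sought genes that specify phrenic motor neurons, the spinal neurons that drive the diaphragm, by inducing candidate genes in motor neurons made from mouse embryonic stem (ES) cells of strain C57/BL6. On day 2, retinoic acid and an agonist of Smoothened were added to the embryoid bodies, and on day 5 motor neurons were enriched by magnetic sorting for a CD2 or a CD14 surface reporter. Doxycycline then induced 1 or 2 transgenes during a culture of 30 hours, although for intracellular domain genes of Notch it was in some cases limited to the last 10 hours. The numbers 30 and 10 in the names of the Notch1 ICD and NERT groups are the labels' own. RNA from 68 samples was hybridised to Affymetrix mouse gene arrays in 8 batches.

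Among CD2-sorted cells (45 arrays), the induced genes were Lhx3, DNLhx3, Hoxc6, Hoxa5, Notch1 ICD (30 and 10), Arid5b, Btbd3, Chd5, Hey1, Klf5, Klf6, Pou3f1, Sfmbt2, Tox, Vwc2, Zbtb7c and Zic1. The CD2 set also held an H4 parental line and YFP, the fluorescent protein whose line was the control. Among CD14-sorted cells (23 arrays), the lines were Pou3f1 with Lhx3, DNLhx3, Hoxc6 or Hoxa5, Pou3f1 alone, a Flag-tagged Pou3f1, NERT (30 and 10), an E3 parental line, an E3 induced line, and YFP. Of the 31 groups, 26 had 2 arrays, 3 had 4, 1 had 3 and 1 had a single array. Each comparison set a line against YFP of the same sorting reporter, and the lines shared 1 protocol apart from the sorting reporter and the time of doxycycline. Whether a line is 1 clone is not stated by the labels, and a line's other differences from the YFP line cannot be told apart from those of its transgene. Nor do they say whether arrays of a group stand for different cultures. The p-values therefore reflect the scatter among these arrays, and that scatter may be technical. The labels do not spell out DNLhx3, NERT, H4 or E3, and those names are kept here. All 3 E3 arrays carry E3 alone as their title, and a separate label calls 1 of them parental and the other 2 parental and induced, without saying what was induced. H4 is likewise parental in that label, while its source text calls it induced. Values are RMA log2 values, on which 1 unit is a doubling, and array medians ran between 7.08 and 7.84.

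Class 3 semaphorins are secreted cues that repel or attract growth cones. They bind a neuropilin, which has no signalling domain of its own, and an A-type plexin in the same complex passes the signal to the cytoskeleton. Sema3a acts mainly through Nrp1 and Sema3f through Nrp2, Sema3c can use either neuropilin, and Sema3e binds Plxnd1 directly. Sema5a carries thrombospondin repeats and is anchored in the membrane. In the spinal cord, motor axons use Nrp1 and Nrp2 to read semaphorins on the way to their muscles. Lhx3 is a LIM homeodomain factor of medial motor neurons, Hoxa5 and Hoxc6 are positional Hox factors, and Pou3f1 is a POU homeodomain factor.

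The promoters of the members that moved in the most lines are printed here with those of both neuropilins, so that the transcripts can be tied to their start sites. RefSeq promoter sequences (GRCm38.p6) were matched by symbol for 8 of 9 members, all except Plxna4, and each sequence below is the 250 bases before the gene's start on the plus strand. They lie at chr5:12382916-12383165 (Sema3d), chr15:32244563-32244812 (Sema5a), chr8:128358823-128359072 (Nrp1) and chr1:62703067-62703316 (Nrp2). Capitals mark a match to any of 4 motifs searched on both strands: the LIM-homeodomain core TAATTA, the POU octamer ATGCAAAT, the Hox-Pbx motif TGATNNAT, and TGGGAA, bound by RBPJ, the DNA partner of Notch.
Sema3d: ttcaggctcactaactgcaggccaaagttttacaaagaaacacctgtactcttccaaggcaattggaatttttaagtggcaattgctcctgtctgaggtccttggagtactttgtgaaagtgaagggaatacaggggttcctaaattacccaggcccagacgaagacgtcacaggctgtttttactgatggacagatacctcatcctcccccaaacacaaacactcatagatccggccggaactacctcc
Sema5a: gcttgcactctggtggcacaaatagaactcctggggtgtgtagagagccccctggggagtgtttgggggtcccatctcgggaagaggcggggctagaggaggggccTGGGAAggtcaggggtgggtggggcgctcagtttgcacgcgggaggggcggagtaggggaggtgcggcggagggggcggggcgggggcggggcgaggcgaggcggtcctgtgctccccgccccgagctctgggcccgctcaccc
Nrp1: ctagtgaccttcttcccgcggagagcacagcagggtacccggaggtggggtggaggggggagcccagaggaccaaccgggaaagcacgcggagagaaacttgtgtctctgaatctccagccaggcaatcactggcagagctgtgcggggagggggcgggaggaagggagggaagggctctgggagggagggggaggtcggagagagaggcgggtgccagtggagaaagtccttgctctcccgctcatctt
Nrp2: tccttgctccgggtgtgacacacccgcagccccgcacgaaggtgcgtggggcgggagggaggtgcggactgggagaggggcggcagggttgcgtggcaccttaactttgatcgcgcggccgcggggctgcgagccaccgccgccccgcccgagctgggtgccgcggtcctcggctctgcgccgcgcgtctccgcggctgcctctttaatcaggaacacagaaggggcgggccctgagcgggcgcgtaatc
Among the 8 promoters, the only match was 1 TGGGAA in Sema5a, which begins at position -144 from the gene's start. Of 32851 RefSeq promoters of the same length, 21.6% held TGGGAA, 7.68% TGATNNAT, 4.84% TAATTA and 1.6% ATGCAAAT. These letters describe the windows shown and no binding was measured. The genes of Sema3d, Sema3a, Sema3e and Sema3c all lie on chromosome 5, where Sema3d and Sema3a are neighbouring genes in the RefSeq table. Nrp2 and Plxna2 lie on chromosome 1, Plxna4 on chromosome 6, Nrp1 on chromosome 8 and Sema5a on chromosome 15.

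Some libraries stood apart from others of their own line. In batch 4, which held no YFP array, 6 of 9 arrays (Hoxa5, Chd5, Arid5b and H4 with 1 each, and Pou3f1 with 2) had Hoxa5 values between 12.14 and 12.75, against 9.62 to 9.90 in the other 3 (Hey1 and Notch1 ICD 10). The members differed between these arrays too. Sema5a read 9.96 to 10.60 in the 6 arrays and 8.81 to 9.68 in the other 3, and Nrp2 read 10.72 to 11.36 in the 6 and 11.89 to 12.20 in the 3. Plxna4, the member with the widest gap, read 10.23 to 11.36 in the 6 and 12.15 to 12.35 in the 3. Plxna2 read 10.59 to 10.78 in the 6 and 9.82 to 10.41 in the 3. For these 4 genes no array of either set fell within the other's range. In the H4 line, which carried 1 array in each of 3 batches, Plxna4 was 10.81 in batch 4, against 12.02 in batch 2 and 12.63 in batch 5. Sema3c in the 6 arrays spread from 8.62 to 11.01, and was 10.86 to 11.32 in the other 3. The fit used a batch term, so these 6 arrays enter the batch 4 estimate of every line that batch holds. Without them, 10 of the 58 calls of the whole fit ended and 22 further gene and line pairs passed, 13 against YFP and 9 between lines. Both kinds are given below with their gene, and for CD14 lines the difference itself is the same in both fits.

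High Hoxa5 values were not limited to batch 4. Hoxa5 read 11.80 and 12.07 in Hoxc6 CD2, 12.09 and 12.14 in Pou3f1+Hoxc6, 11.29 and 11.16 in Pou3f1+DNLhx3, and 11.00 and 11.01 in Pou3f1+Hoxa5, against 9.06 to 9.97 in CD2 YFP and 9.10 to 9.58 in CD14 YFP. Sema5a was called higher in all 4 of these lines, Sema3d lower in all but Pou3f1+Hoxa5, and Nrp2 lower in Pou3f1+Hoxc6 and Pou3f1+DNLhx3. For Sema5a and Nrp2 these are the directions seen in the 6 arrays of batch 4. Plxna2, higher in the 6 arrays, was -0.53 from YFP in Pou3f1+Hoxc6, -0.13 in Pou3f1+Hoxa5 and 0.48 in Pou3f1+DNLhx3, without a call. Sema5a was also called higher in DNLhx3 CD2, Lhx3 CD2 and Pou3f1+Lhx3, whose Hoxa5 values are not given here. The Zic1 and Hoxa5 arrays of batch 5 also exceeded CD2 YFP in Hoxa5, and neither line had a member called. The part of Hoxa5 levels in the member values was not tested.

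**Figure D1:**
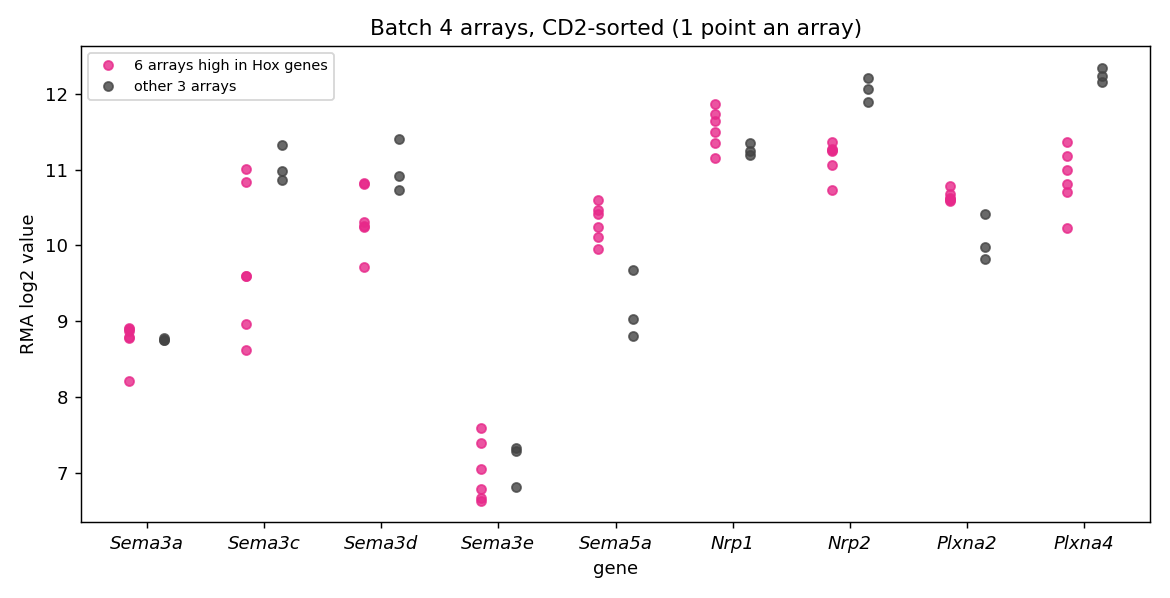
RMA log2 values (y axis) of each of the 9 genes (x axis) in the 9 arrays of batch 4, all CD2-sorted. Each point is an array. The 6 arrays with high Hox gene values (left, pink) are above the other 3 (right, grey) for Sema5a, at 9.96 to 10.60, and below them for Nrp2 and Plxna4, at 10.72 to 11.36 and 10.23 to 11.36.

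Against YFP, 33 of 243 gene and line pairs passed adjusted p under 0.05, 15 higher and 18 lower, in 11 of 27 comparisons. That is 13.58% of the pairs, beside 1.99% of pairs over all genes. The members were chosen with earlier results of these data known, so a share above that of all genes may come from that choice. Such shares therefore cannot test whether this gene family responds more than others. The same limit holds for the percentages of genes given here and beside each line below. Over the 10 comparisons between lines, 25 of 90 pairs passed (8 higher, 17 lower), beside 3.34% of all genes' pairs. Sema5a was called in 8 of 27 comparisons with YFP, a number that 0.396% of all genes reached. Nrp2 was called in 6 (1.14% of genes), Sema3d and Plxna4 in 5 each (2.01%), Sema3c in 3 (6.99%), Sema3a, Sema3e and Nrp1 in 2 each (13.0%) and Plxna2 in none. The comparisons share YFP arrays, so these counts are not of independent events. They are those of the fit with a batch term, and without that term 27 of the 58 calls held. In whole-culture RNA, fewer cells of a type and less RNA per cell cannot be told apart.

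**Figure D2:**
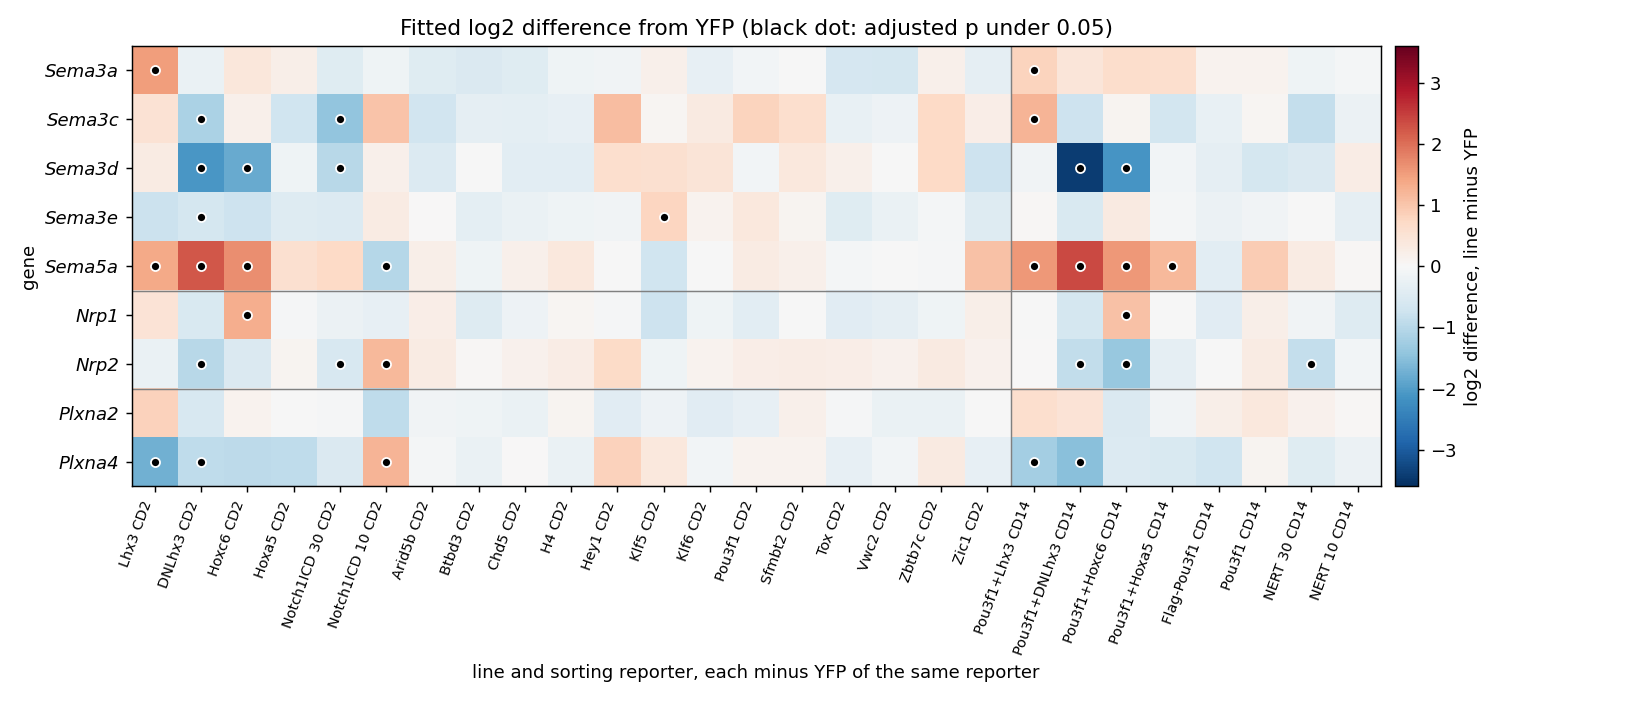
Fitted log2 difference from YFP (colour scale, red higher and blue lower in the line) for the 9 genes (rows, with grey lines between semaphorins, neuropilins and plexins) in 27 lines (columns, CD2-sorted left and CD14-sorted right of the grey line). Black dots mark the 33 calls, and the darkest cell is Sema3d in Pou3f1+DNLhx3 at -3.41.

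Sema3d, a secreted semaphorin known for repelling axons and guiding vessels, had the widest range of the 9 genes, from 7.28 to 12.04 across arrays. It read 9.14 and 8.73 in the DNLhx3 CD2 arrays, against 10.93, 10.75, 10.72 and 11.06 in YFP. In Pou3f1+DNLhx3 it read 7.28 and 8.08, against 10.37 and 10.57 in Pou3f1 alone and 11.00, 11.18, 11.30 and 11.15 in YFP. Both DNLhx3 lines lay wholly below their controls. Sema3d fell by 2.09 ± 0.28 (SE) in DNLhx3, a 4.26-fold difference (adjusted p = 2.92e-06). It fell by 3.41 ± 0.30 in Pou3f1+DNLhx3, a 10.6-fold difference (adjusted p = 1.19e-10). Within the batch, the differences from YFP were -1.75 and -2.16 in DNLhx3 and -3.81 and -3.01 in Pou3f1+DNLhx3. In DNLhx3 CD2, 6 of 9 members were called (Sema5a higher, 5 lower), beside 4.09% of all genes. Pou3f1+DNLhx3 had 4 of 9 (1 higher, 3 lower), beside 4.00%.

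In the lines with Lhx3 itself, Sema3d was not called against YFP. It read 12.04 and 11.45 in Lhx3 CD2 and 11.03 and 11.14 in Pou3f1+Lhx3. Against the DNLhx3 lines these were higher by 2.38 ± 0.48 in CD2 cells (adjusted p = 0.00397) and by 3.27 ± 0.43 beside Pou3f1 (adjusted p = 3.7e-06). Both comparisons run between batches: Lhx3 was in batches 5 and 6, DNLhx3 in batch 3, Pou3f1+Lhx3 in batch 7 and Pou3f1+DNLhx3 in batch 6. The CD2 difference was 1.37 without the Lhx3 array of batch 5 (adjusted p = 0.542) and 1.88 without the H4 array of batch 5 (adjusted p = 0.0536). The difference beside Pou3f1 passed in every run that left out an array. Lhx3 against DNLhx3 had 2 of 9 members called, beside 3.77% of all genes, and Pou3f1+Lhx3 against Pou3f1+DNLhx3 had 2 of 9, beside 1.23%.

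Sema3d was also low where Hoxc6 was induced. It read 9.03 and 8.90 in Pou3f1+Hoxc6, against 11.07 and 10.94 in Pou3f1+Hoxa5. It fell by 2.13 ± 0.30 against YFP (adjusted p = 4.24e-06), by 1.51 ± 0.30 against Pou3f1 (adjusted p = 0.000939) and by 2.04 ± 0.30 against Pou3f1+Hoxa5 (adjusted p = 4.16e-05). In Hoxc6 CD2 it read 10.26 and 8.93, against 10.79 in the H4 array and 11.48 in the Hoxa5 array of the same batch 5. The fitted change was -1.82 ± 0.41 against YFP (adjusted p = 0.00966), which rests on batch 5 being tied to YFP through other lines. It was -1.16 without the second Hoxc6 array (adjusted p = 0.14), -1.48 without either Hoxa5 array (adjusted p = 0.136) and -1.52 without the 6 Hox-high arrays of batch 4 (adjusted p = 0.0958).

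Sema5a, which can repel or attract growth cones depending on its partners, was called higher in 7 lines. It read 10.93 and 11.08 in DNLhx3 CD2, against 8.82, 9.22, 8.96 and 8.48 in YFP, and 10.82 and 11.22 in Pou3f1+DNLhx3, against 9.65 and 9.47 in Pou3f1 and 8.78, 8.53, 8.78 and 9.12 in YFP. All DNLhx3 arrays lay above all control arrays. It rose by 2.22 ± 0.25 in DNLhx3 (4.67-fold, adjusted p = 9.12e-08) and by 2.37 ± 0.27 in Pou3f1+DNLhx3 (5.18-fold, adjusted p = 4.77e-08). Against Pou3f1 alone, Sema5a in Pou3f1+DNLhx3 rose by 1.46 ± 0.27 (adjusted p = 0.000587). It also rose in Pou3f1+Lhx3, at 10.60 and 10.41, by 1.56 ± 0.27 (adjusted p = 0.000145), and in Pou3f1+Hoxc6, at 10.27 and 10.19, by 1.57 ± 0.27 (adjusted p = 9.06e-05). The 4 calls against YFP, all in lines of the same batch as YFP, passed under each alternative setting that could be fitted and each left-out array. The call against Pou3f1 passed with each left-out array but was lost without a batch term (1.46, adjusted p = 0.165).

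The other Sema5a calls were less even. In Pou3f1+Hoxa5 (10.09 and 9.56) the rise was 1.17 ± 0.27 (adjusted p = 0.00607), and it was 0.91 without the array at 10.09 (adjusted p = 0.174) and 1.05 without the YFP array at 8.53 (adjusted p = 0.0925). In Hoxc6 CD2 (9.85 and 10.81, against 9.11 in the batch 5 H4 array) it rose by 1.68 ± 0.37 (adjusted p = 0.00697), and was 1.20 without the array at 10.81 (adjusted p = 0.0962) and 1.57 without either Hoxa5 array (adjusted p = 0.0587). In Lhx3 CD2 (9.66 and 9.09, against 10.06 and 8.05 for the Zic1 arrays of the same batches 5 and 6) the fitted rise was 1.38 ± 0.39 (adjusted p = 0.0396), and 11 of 65 left-out arrays ended the call, among them the Lhx3 array of batch 6 or either Zic1 array (1.02, adjusted p = 0.0856). Over all 65 the value ran from 1.02 to 2.45. The Lhx3 CD2 call held under 1 of 6 alternative settings. It was 0.50 without a batch term (adjusted p = 0.483), 1.52 without the 6 Hox-high arrays (adjusted p = 0.0568), and missed the threshold on CD2 arrays alone (adjusted p = 0.125). Flag-tagged Pou3f1 read 8.42 and 8.14, below the 9.65 and 9.47 of untagged Pou3f1, and Sema5a was lower there by -1.28 ± 0.27 (adjusted p = 0.00683), though -1.14 without the Flag-Pou3f1 array at 8.14 (adjusted p = 0.134) and between -1.37 and -1.19 without either Pou3f1 array (adjusted p = 0.0646 and 0.0943). Flag-Pou3f1 against Pou3f1 had 2 of 9 members called, beside 2.21% of all genes. Pou3f1+Hoxa5 had 1 of 9 against YFP, beside 5.92%, and Hoxc6 CD2 had 3 of 9, beside 2.35%.

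**Figure D3:**
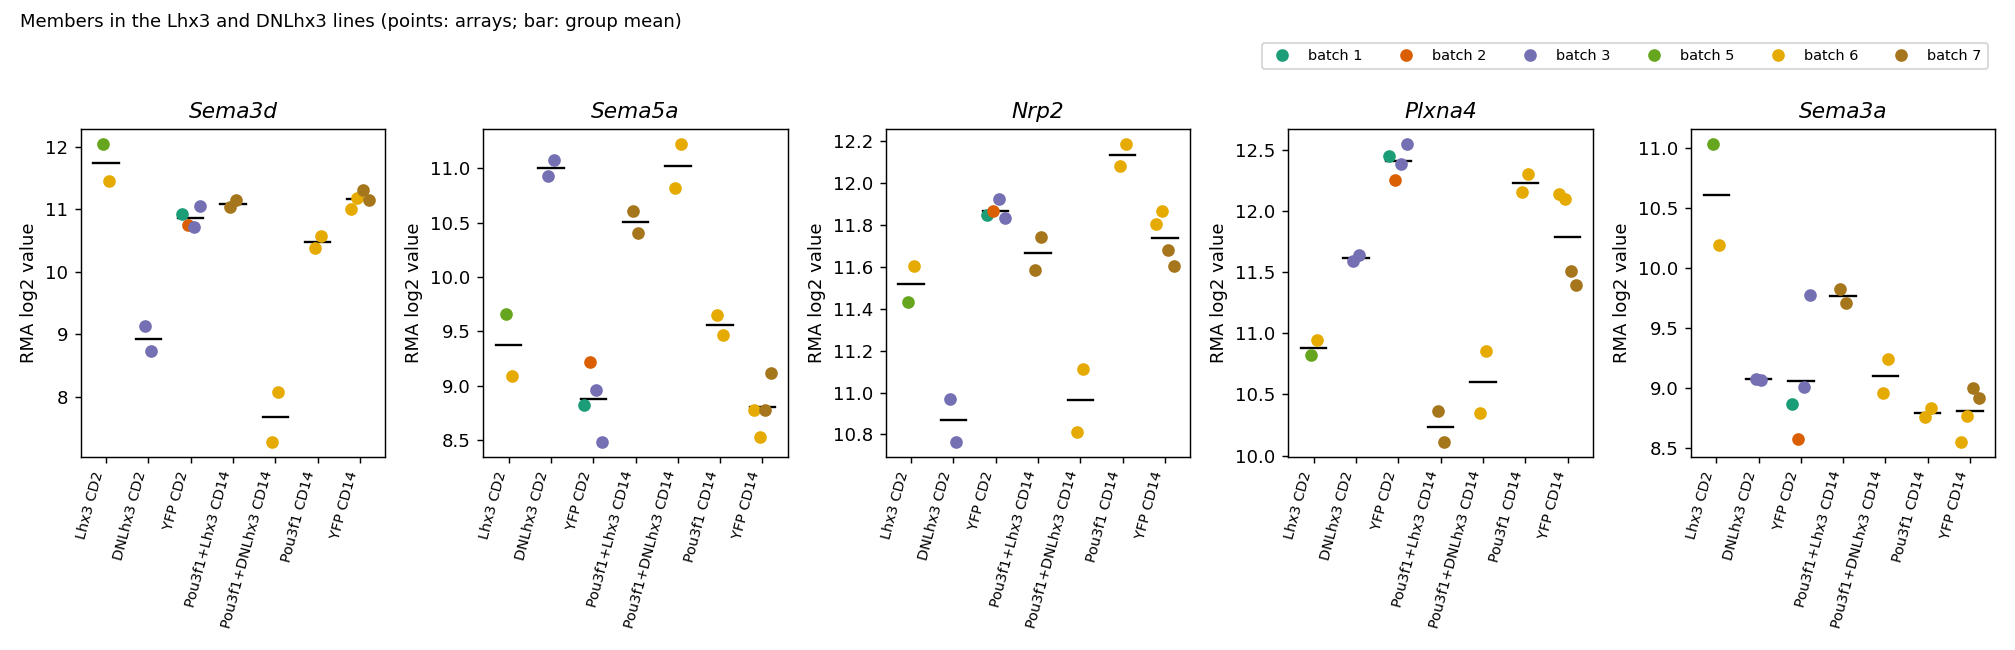
RMA log2 values (y axis) of Sema3d, Sema5a, Nrp2, Plxna4 and Sema3a in the Lhx3, DNLhx3, Pou3f1 and YFP lines (x axis), with 1 point an array, coloured by batch, and a bar at each group mean. Sema3d is at 9.14 or lower in every DNLhx3 array and Sema5a at 10.82 or higher, while Plxna4 is low in both the Lhx3 and the DNLhx3 lines.

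Sema3a, the founding repellent of the class and the main ligand of Nrp1, was called against YFP in the 2 lines with Lhx3 itself in the fit to all arrays. It read 11.03 in batch 5 and 10.19 in batch 6 in Lhx3 CD2, against 9.08 (H4) and 9.01 (Zic1) in batch 5 and 8.53 (Zic1) in batch 6. The YFP arrays read 8.87, 8.57, 9.01 and 9.78, so both Lhx3 arrays were above them. The rise was 1.51 ± 0.34 (2.84-fold, adjusted p = 0.0108), and against DNLhx3, where Sema3a read 9.07 in both arrays, it was 1.73 ± 0.38 (adjusted p = 0.0078). Both calls were lost on CD2 arrays alone (adjusted p = 0.0654 and 0.0576). They were also lost with a block of batch and replicate number (1.29 and 1.49, adjusted p = 0.263 and 0.185). Without the Lhx3 array of batch 5 the rise over YFP was 1.23 (adjusted p = 0.608), and without the H4 array of batch 5 it was 1.06 (adjusted p = 0.127). In Pou3f1+Lhx3, Sema3a read 9.83 and 9.71, against 8.999 and 8.92 in YFP of the same batch 7, a rise of 0.81 ± 0.24 (adjusted p = 0.04). Leaving out any of these 4 arrays gave 0.75 to 0.87, with adjusted p between 0.139 and 0.316. Pou3f1+Lhx3 was 0.37 above Pou3f1+DNLhx3 in Sema3a, which was not called. In Pou3f1+Hoxc6, Sema3a read 9.36 and 9.24 and was 0.64 ± 0.24 above YFP without passing (adjusted p = 0.0827), and it passed without the 6 Hox-high arrays (adjusted p = 0.0429). On CD14 arrays alone, Sema3a was called higher than YFP in Pou3f1+Hoxc6 (adjusted p = 0.00186), Pou3f1+Hoxa5 (0.59, adjusted p = 0.00389) and Pou3f1+DNLhx3 (0.44, adjusted p = 0.0385). Lhx3 CD2 had 3 of 9 members called against YFP, beside 3.81% of all genes, and Pou3f1+Lhx3 had 4 of 9, beside 3.94%.

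Sema3c, a ligand for complexes of either neuropilin, was higher in Pou3f1+Lhx3, at 11.91 and 12.22, against 10.90 and 10.80 in batch 7 YFP. The rise was 1.21 ± 0.32 (adjusted p = 0.0182), and 1.06 without the array at 12.22 (adjusted p = 0.214). Leaving out any other of these 4 arrays gave 1.16 to 1.37, again with an adjusted p above 0.05. Pou3f1+Lhx3 exceeded Pou3f1+DNLhx3 (10.38 and 10.71) by 1.95 ± 0.45 (adjusted p = 0.0135), a call that 5 of 65 left-out arrays ended (1.79 without the Pou3f1+DNLhx3 array at 10.38, adjusted p = 0.106, and 1.80 without the Pou3f1+Lhx3 array at 12.22, adjusted p = 0.108, with the other 3 being YFP arrays). In DNLhx3 CD2 it read 10.12 and 9.95, against 10.37, 10.64, 10.79 and 11.32 in YFP, and fell by 1.14 ± 0.30 (adjusted p = 0.0187). That call ended without either DNLhx3 array (-1.23 and -1.06, adjusted p = 0.0633 and 0.195) or without the YFP array at 11.32 (-1.06, adjusted p = 0.0984).

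Some Sema3c differences passed only under other settings. In NERT 30 it read 10.08 and 9.90, below all 4 YFP arrays (11.30, 11.25, 10.90 and 10.80). That difference of -0.86 ± 0.32 missed the threshold with all arrays (adjusted p = 0.129), and passed on CD14 arrays alone (adjusted p = 0.000105), with same-batch YFP (adjusted p = 0.0106) and without the 6 Hox-high arrays (adjusted p = 0.0129). In Pou3f1+DNLhx3 the difference was -0.73 against YFP (adjusted p = 0.303) and -0.81 against Pou3f1 (adjusted p = 0.285), and both passed without the 6 arrays (adjusted p = 0.0446 and 0.0317). Pou3f1+Hoxa5 (10.52 and 10.70) was -0.75 from Pou3f1 (adjusted p = 0.209), which also passed without the 6 (adjusted p = 0.0395).

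Sema3e, which signals through Plxnd1 without a neuropilin, was dim, with a median of 7.28 over arrays and 35.6% of genes at a lower mean. It read 6.62 and 6.94 in DNLhx3 CD2, against 7.37, 7.07, 7.27 and 7.48 in YFP. It fell by 0.64 ± 0.16 (adjusted p = 0.0156), and was -0.48 without the array at 6.62 (adjusted p = 0.201) and -0.60 without the YFP array at 7.48 (adjusted p = 0.0784). The DNLhx3 call was also lost without a batch term (-0.52, adjusted p = 0.169) and on CD2 arrays alone (adjusted p = 0.0535). In the Klf5 line, whose transgene is a zinc-finger transcription factor, Sema3e read 7.79 and 8.11, above every YFP array. That rise of 0.77 ± 0.16 (1.71-fold, adjusted p = 0.0143) was 0.42 in batch 1 and 1.04 in batch 2 over YFP of the same batch. It was not called without either Klf5 array (0.87 and 0.67, adjusted p = 0.183 and 0.194) or the batch 2 YFP array (0.65, adjusted p = 0.0964). The Klf5 line had 1 of 9 members called, beside 0.311% of all genes. Without the 6 Hox-high arrays, Sema3e was also called lower in Lhx3 CD2, at -1.07 (adjusted p = 0.0303, and -0.77 with adjusted p = 0.0683 in the whole fit), and in Hoxc6 CD2, at -1.05 (adjusted p = 0.0385, and -0.75 with adjusted p = 0.0777 in the whole fit). Both values then rest on the H4 line as the only tie of batch 5 to CD2 YFP. Its batch 5 array read 7.79, above every CD2 YFP array. Sema3e was also called lower without the 6 in Pou3f1+DNLhx3 against YFP (-0.54, adjusted p = 0.041, and 0.0793 in the whole fit), where it read 7.07 and 6.95, against 7.51 to 7.70 in YFP. Pou3f1+Hoxc6 was 0.47 above Pou3f1 (adjusted p = 0.0499 without the 6 arrays and 0.0817 with them).

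Nrp1, the receptor for Sema3a and a co-receptor for VEGF, was called in the 2 Hoxc6 lines against YFP, higher in both. It read 11.83 and 11.84 in Pou3f1+Hoxc6, against 10.90 and 10.65 in Pou3f1+Hoxa5, 11.00 and 10.98 in Pou3f1, and 10.77, 10.80, 11.07 and 11.22 in YFP. The Hoxc6 arrays lay above all of these. It rose by 1.05 ± 0.21 against YFP (2.07-fold, adjusted p = 0.00078), by 0.84 ± 0.21 against Pou3f1 (adjusted p = 0.00845) and by 1.06 ± 0.21 against Pou3f1+Hoxa5 (adjusted p = 0.00356). Pou3f1+Hoxc6 had 4 of 9 members called against YFP, beside 8.98% of all genes, 4 of 9 against Pou3f1, beside 8.97%, and 3 of 9 against Pou3f1+Hoxa5, beside 0.973%. In Hoxc6 CD2, Nrp1 read 12.01 and 12.50, against 11.35 in the H4 array, 11.45 in the Zic1 array and 10.56 in the Hoxa5 array of batch 5. It rose by 1.31 ± 0.29 against YFP (adjusted p = 0.00739), 0.87 without the 6 Hox-high arrays (adjusted p = 0.129), 0.83 without either Hoxa5 array (adjusted p = 0.222) and 1.06 without the array at 12.50 (adjusted p = 0.0724). The rise over Pou3f1 was 0.83 to 0.86 without any 1 of its 4 arrays, with adjusted p between 0.0525 and 0.0775, and the rise over Pou3f1+Hoxa5 was 0.93 without the Pou3f1+Hoxa5 array at 10.65 (adjusted p = 0.137) and 1.06 and 1.05 without either Pou3f1+Hoxc6 array (adjusted p = 0.0612 and 0.0726).

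The sign for Nrp1 was the opposite in Pou3f1+DNLhx3, which read 9.97 and 10.33, against 11.00 and 10.98 in Pou3f1. It fell by 0.84 ± 0.21 against Pou3f1 (adjusted p = 0.021), and by 0.66 without the array at 9.97 (adjusted p = 0.422) or 0.83 and 0.85 without either Pou3f1 array (adjusted p = 0.161 and 0.157). Against YFP the difference was -0.63 (adjusted p = 0.0998), which passed without a batch term (-0.82, adjusted p = 0.0244), on CD14 arrays alone (adjusted p = 0.00223), with same-batch YFP (adjusted p = 0.000554) and without the 6 Hox-high arrays (adjusted p = 0.0184). Nrp1 in the Klf5 line read 10.39 and 10.43, below YFP at 11.22, 11.08, 11.17 and 11.20. That difference of -0.76 ± 0.20 had an adjusted p of 0.107, and was -0.71 with same-batch YFP (adjusted p = 0.00102) and without the 6 arrays (adjusted p = 0.0341). DNLhx3 CD2, at 10.79 and 10.48, was -0.54 from YFP (adjusted p = 0.129) and -0.58 under the same 2 settings (adjusted p = 0.00129 and 0.0267). Flag-Pou3f1, at 10.54 and 10.20, was -0.41 from YFP (adjusted p = 0.366), and passed on CD14 arrays alone (adjusted p = 0.0305) and with same-batch YFP (adjusted p = 0.0457). It was -0.62 from Pou3f1 (adjusted p = 0.122, and 0.0348 without the 6 arrays). NERT 10 was -0.45 from YFP (adjusted p = 0.568, and 0.0431 on CD14 arrays alone). Pou3f1+DNLhx3 against Pou3f1 had 5 of 9 members called, beside 2.11% of all genes.

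Nrp2, the receptor that pairs with Sema3f and Sema3c, fell in 5 lines. It read 10.48 and 10.47 in Pou3f1+Hoxc6, the lowest values of the series, against 11.57 and 11.48 in Pou3f1+Hoxa5, 12.08 and 12.19 in Pou3f1, and 11.81, 11.87, 11.68 and 11.60 in YFP. The fall was 1.36 ± 0.20 against YFP (2.57-fold, adjusted p = 4.79e-06), 1.66 ± 0.20 against Pou3f1 (adjusted p = 2.05e-07) and 1.05 ± 0.20 against Pou3f1+Hoxa5 (adjusted p = 0.00128). In Pou3f1+Hoxc6, Nrp1 and Nrp2 were thus called in opposite directions, whereas both were lower in Pou3f1+DNLhx3 against Pou3f1. In Hoxc6 CD2, Nrp2 read 11.11 and 11.38, against 12.32 (H4) and 12.01 (Zic1) in batch 5, and was not called with all arrays but was called lower, at -1.17 (adjusted p = 0.00142), without the 6 Hox-high arrays. Lhx3 CD2 changed in the same way. Nrp2 there read 11.43 and 11.61, and was -0.25 from YFP with all arrays (adjusted p = 0.617) and -0.91 without the 6 (adjusted p = 0.0186). Without the 6, batch 5 is tied to CD2 YFP only through the H4 line. That line then has 1 array in batch 2 and 1 in batch 5, so both differences rest on the H4 array at 12.32. Pou3f1+Hoxa5 was -0.61 from Pou3f1 (adjusted p = 0.0758 with the 6 arrays and 0.00242 without), and Pou3f1+Lhx3 was 0.89 from Pou3f1+DNLhx3 (adjusted p = 0.142 with them and 0.00228 without).

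**Figure D4:**
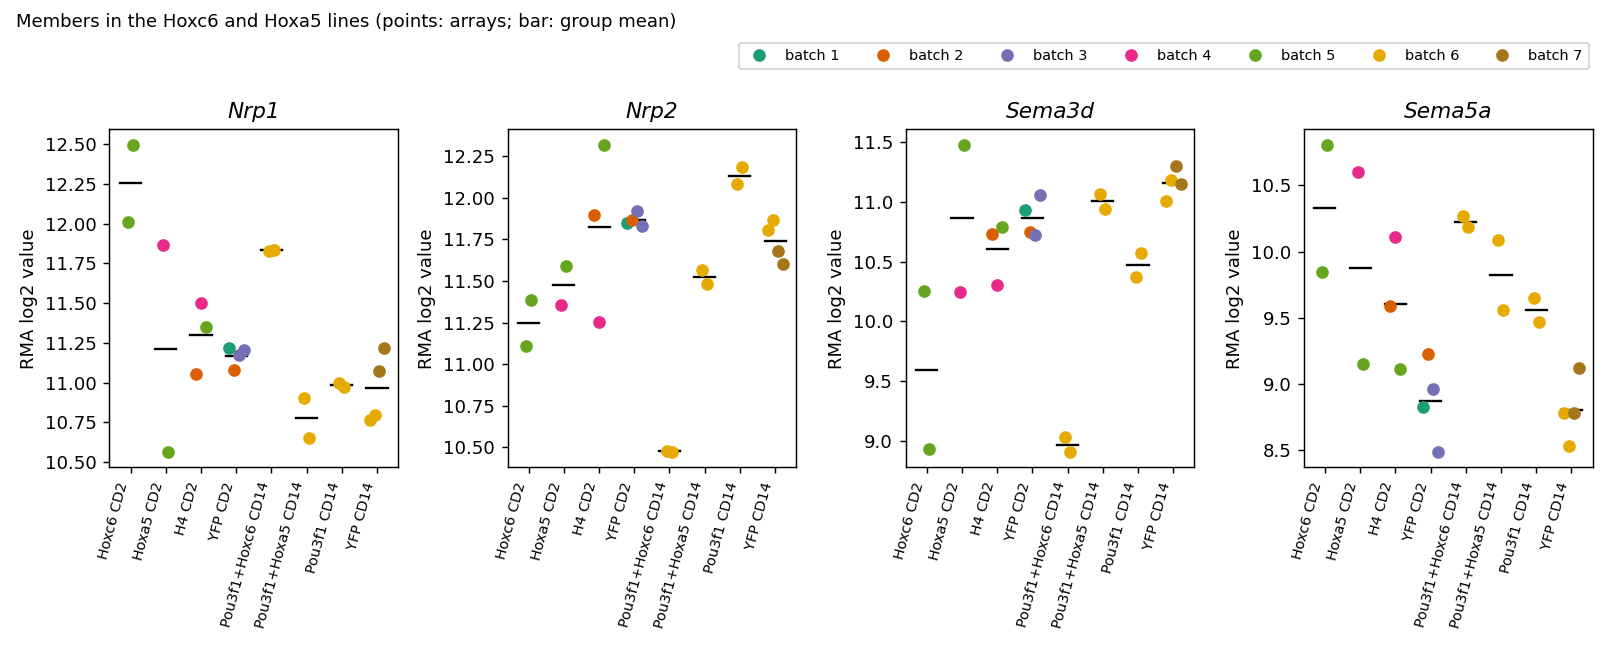
RMA log2 values (y axis) of Nrp1, Nrp2, Sema3d and Sema5a in the Hoxc6, Hoxa5, H4, Pou3f1 and YFP lines (x axis), with 1 point an array, coloured by batch, and a bar at each group mean. In Pou3f1+Hoxc6, Nrp1 is at 11.83 and 11.84 and Nrp2 at 10.48 and 10.47, beyond the arrays of Pou3f1+Hoxa5, Pou3f1 and YFP on either side.

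Nrp2 was also lower in both DNLhx3 lines. It read 10.97 and 10.77 in DNLhx3 CD2, against 11.85, 11.87, 11.92 and 11.83 in YFP, a fall of 1.01 ± 0.18 (2.02-fold, adjusted p = 0.000326). In Pou3f1+DNLhx3 it read 10.81 and 11.11 and fell by 0.87 ± 0.20 against YFP (adjusted p = 0.00358) and by 1.17 ± 0.20 against Pou3f1 (adjusted p = 0.00012). The fall against YFP was 0.72 without the array at 10.81 (adjusted p = 0.132) and 0.84 without the YFP array at 11.87 (adjusted p = 0.0597).

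The remaining Nrp2 changes were in the NERT and Notch1 ICD lines. In NERT 30, Nrp2 read 10.81 and 10.78, against 11.58 and 11.49 in NERT 10 and 11.68 and 11.60 in YFP of the same batch 7. It fell by 0.85 ± 0.20 against YFP (adjusted p = 0.00497) and by 0.74 ± 0.20 against NERT 10 (adjusted p = 0.0202). The first was -0.84 without the array at 10.78 (adjusted p = 0.0681) and -0.81 without the YFP array at 11.68 (adjusted p = 0.0742), and the second was -0.79 to -0.70 without any 1 of its 4 arrays (adjusted p between 0.108 and 0.189). NERT 30 had 1 of 9 members called against YFP, beside 4.70% of all genes, and 1 of 9 against NERT 10, beside 3.78%. NERT 10 had none called, beside 0.416%, and 1 of 9 members had an unadjusted p under 0.05.

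In Notch1 ICD 30, Sema3c, Sema3d and Nrp2 fell, which made 3 of 9 members, beside 6.07% of all genes. Sema3c read 9.38 and 10.13, against 10.79 and 11.32 in YFP of the same batch 3, and fell by 1.42 ± 0.30 (2.68-fold, adjusted p = 0.00119). It was -1.05 without the array at 9.38 (adjusted p = 0.119). Sema3d read 10.02 and 10.05, against 10.72 and 11.06, and fell by 0.99 ± 0.28 (adjusted p = 0.0256), but was not called without either Notch1 ICD 30 array (-0.97 and -1.01, adjusted p = 0.155 and 0.134) or without the YFP array at 11.06 (-0.97, adjusted p = 0.0706). Nrp2 read 11.10 and 11.47, against 11.92 and 11.83, a fall of 0.59 ± 0.18 (adjusted p = 0.0445) that 21 of 65 left-out arrays ended, among them the Notch1 ICD 30 array at 11.10 (-0.41, adjusted p = 0.428). Over all 65 the value ran from -0.77 to -0.41.

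**Figure D5:**
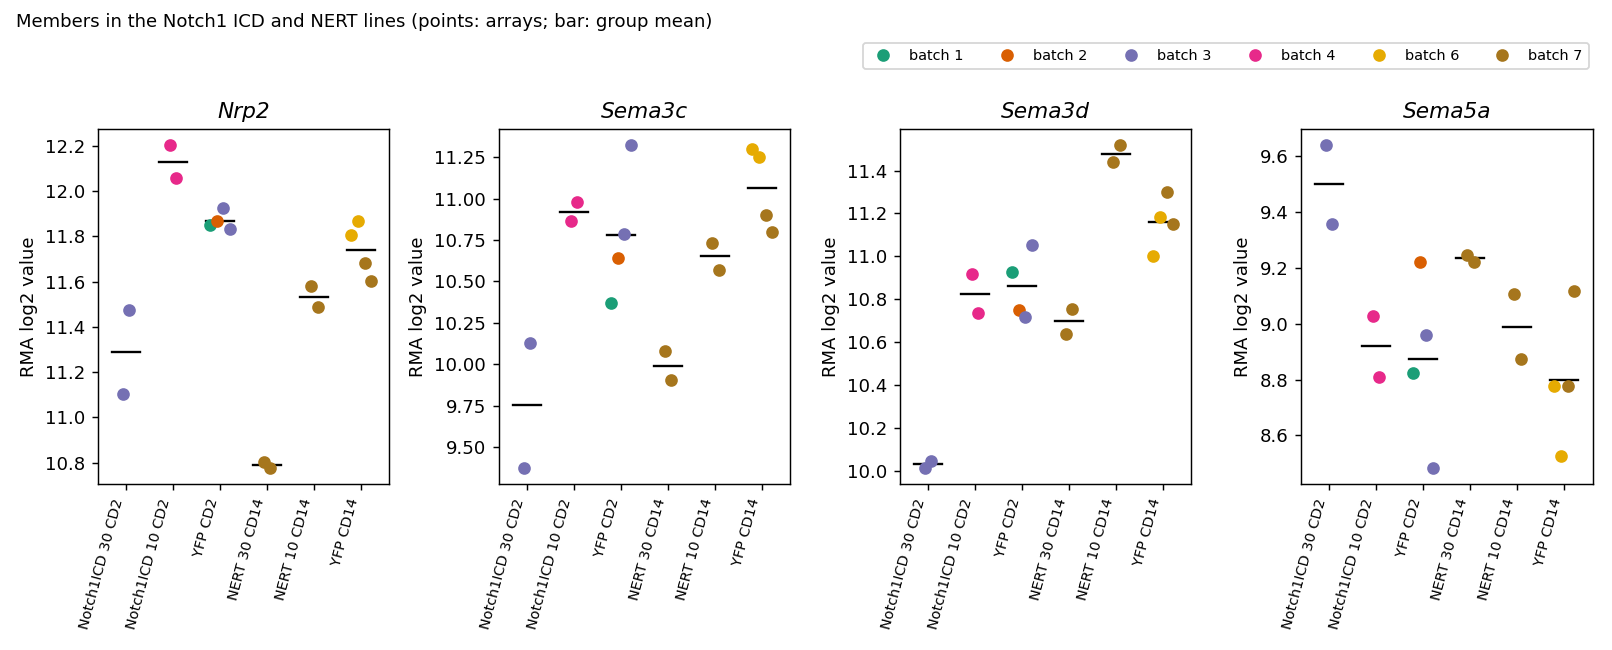
RMA log2 values (y axis) of Nrp2, Sema3c, Sema3d and Sema5a in the Notch1 ICD, NERT and YFP lines (x axis), with 1 point an array, coloured by batch, and a bar at each group mean. Nrp2 is at 10.81 and 10.78 in NERT 30, below NERT 10 and YFP, and both Notch1 ICD 10 arrays belong to batch 4.

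Both Notch1 ICD 10 arrays came from batch 4, and their fitted differences from YFP depend on the 6 Hox-high arrays beside them. In Notch1 ICD 10, Nrp2 read 12.20 and 12.06 and Plxna4 12.35 and 12.24, against 11.85, 11.87, 11.92 and 11.83 for Nrp2 and 12.45, 12.25, 12.39 and 12.55 for Plxna4 in YFP arrays of other batches. With the batch term, Nrp2 was higher by 1.16 ± 0.20 (adjusted p = 0.000433), Plxna4 by 1.21 ± 0.22 (adjusted p = 0.000544) and Sema5a was lower by -1.02 ± 0.28 (adjusted p = 0.0379), which made 3 of 9 members, beside 2.96% of all genes. Without the 6 arrays the differences were 0.63, 0.60 and -0.47 and none was called (adjusted p = 0.198, 0.512 and 0.769). For Sema5a, 11 of 65 single left-out arrays also ended the call, with differences between -1.13 and -0.83. Notch1 ICD 30 against Notch1 ICD 10 had 5 of 9 members called, beside 6.41% of all genes. Of these, Nrp2 was still called without the 6 arrays (-1.75 ± 0.24 with them, -1.21 without, adjusted p = 0.00379), while Sema3c, Sema3e, Sema5a and Plxna4 were not (adjusted p = 0.0529, 0.14, 0.27 and 0.137). Without the 6, batch 4 is tied to the other batches only through its 1 Hey1 array. All 5 calls were lost without a batch term, where the Nrp2 difference was -0.84 (adjusted p = 0.177).

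Plxna4, a signalling plexin for class 3 and class 6 semaphorins, was lower in the Lhx3 and DNLhx3 lines. It read 10.83 and 10.94 in Lhx3 CD2, against 12.63 (H4) and 12.76 (Zic1) in batch 5 and 11.91 (Zic1) in batch 6. It fell by 1.73 ± 0.30 against YFP (3.33-fold, adjusted p = 0.000733), and by 1.01 without the Lhx3 array of batch 5 (adjusted p = 0.608). In Pou3f1+Lhx3 it read 10.36 and 10.11, against 11.51 and 11.40 in batch 7 YFP, and fell by 1.22 ± 0.21 (adjusted p = 0.000115). In DNLhx3 CD2 it read 11.60 and 11.64, against 12.39 and 12.55 in batch 3 YFP, a fall of 0.90 ± 0.19 (adjusted p = 0.00308). In Pou3f1+DNLhx3 it read 10.35 and 10.86, against 12.16 and 12.31 in Pou3f1 and 12.14 and 12.10 in batch 6 YFP. It fell by 1.52 ± 0.21 against YFP (adjusted p = 2.1e-06) and by 1.63 ± 0.21 against Pou3f1 (adjusted p = 9.1e-07). None of these DNLhx3 calls held without a batch term. The difference was then -0.79 in DNLhx3 CD2 (adjusted p = 0.426). In Pou3f1+DNLhx3 it was -1.19 against YFP and -1.63 against Pou3f1 (adjusted p = 0.0915 and 0.106). The Lhx3 CD2 call was lost with a block of batch and replicate number (-1.66, adjusted p = 0.194). The Lhx3 and DNLhx3 lines themselves did not pass as different in CD2 cells (-0.83 ± 0.33, adjusted p = 0.126). Pou3f1+Lhx3 was lower than Pou3f1 by -1.33 ± 0.29 (adjusted p = 0.0184), the only member called there, beside 0.502% of all genes. That comparison runs between batches 7 and 6, and 7 of 65 left-out arrays ended it: both Pou3f1 arrays, all 4 YFP arrays and the Pou3f1+Lhx3 array at 10.11 (-1.21, adjusted p = 0.14). Flag-Pou3f1 read 11.58 and 11.24 and was lower than Pou3f1 by -0.82 ± 0.21 (adjusted p = 0.0278), a call that ended without any 1 of the 4 arrays (values from -0.99 to -0.65). Against YFP, Flag-Pou3f1 was -0.71 ± 0.21 (adjusted p = 0.0578), and it passed under 5 alternative settings, with adjusted p between 0.00395 and 0.0444. Pou3f1+Hoxa5 and Pou3f1+Hoxc6 were -0.67 and -0.60 from Pou3f1 (adjusted p = 0.0624 and 0.0635), and both passed without the 6 Hox-high arrays (adjusted p = 0.0328 and 0.0367).

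Plxna2, the other A-type plexin, was called in none of the 27 comparisons with YFP by limma, and 4 of those had an unadjusted p under 0.05. Fitted on CD14 arrays alone, it was called in 3 of them, at 0.48 in Pou3f1+DNLhx3 (adjusted p = 0.0272), 0.60 in Pou3f1+Lhx3 (adjusted p = 0.00685) and -0.53 in Pou3f1+Hoxc6 (adjusted p = 0.00834). Its fitted differences from YFP ran between -0.90 (Notch1 ICD 10) and 0.82 (Lhx3). It read 8.82 and 8.74 in Pou3f1+Hoxc6, the lowest values of the series, against 9.59 and 9.79 in Pou3f1 and 9.27 and 9.34 in YFP of the same batch. Against Pou3f1 the fall was 0.91 ± 0.28 (adjusted p = 0.0317), and it ended without any 1 of the 4 arrays (-1.01 to -0.81, adjusted p between 0.0805 and 0.224). Lhx3 CD2 was 1.40 ± 0.44 above DNLhx3 (adjusted p = 0.0629), and 1.99 without the 6 Hox-high arrays (adjusted p = 0.0379). Without the 6, batch 5 is tied to batch 3 of DNLhx3 only through the H4 line.

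With Pou3f1 on its own, none of the 9 members was called by limma in CD2 cells, beside 2.09% of all genes, or in CD14 cells, beside 0.306%. An unadjusted p under 0.05 was reached by 3 members in CD2 and by 2 in CD14. The largest difference in CD2 with all arrays was Sema3c at 0.79 ± 0.25 (adjusted p = 0.101). Of the 4 Pou3f1 CD2 arrays, 2 are among the 6 Hox-high arrays, and without the 6 Sema3c was 0.38 (adjusted p = 0.481) and the largest difference was Sema3d at -0.50 (adjusted p = 0.454). Nrp2 read 12.14 and 12.51 in the Pou3f1 arrays of batches 1 and 2, and 11.24 and 10.72 in those of batch 4. It was 0.24 from YFP with all arrays (adjusted p = 0.551), and was called at 0.45 without the 6 (adjusted p = 0.0309) and with same-batch YFP (adjusted p = 0.026). In CD14 the largest difference was Sema5a at 0.91 ± 0.27 (adjusted p = 0.226), where both arrays (9.65 and 9.47) were above every YFP array. It passed on CD14 arrays alone (adjusted p = 0.00902) and with same-batch YFP (adjusted p = 0.0183). The effect in CD14 minus that in CD2 was called for no member, beside 0.0100% of all genes. Its sizes ran from -0.71 (Sema3c) to 0.68 (Plxna2), and 2 members had an unadjusted p under 0.05. Pou3f1+Hoxa5 against Pou3f1 had no member called, beside 3.45%, with 3 at an unadjusted p under 0.05. In all, 16 of 27 lines had no member called against YFP in the fit to all arrays, and 5 of these (Pou3f1 CD2 and CD14, Flag-Pou3f1, NERT 10 and Hey1) had a member called under at least 1 alternative setting. The share of all genes called was 0% in Chd5, Hoxa5 and Sfmbt2, 0.00502% in H4, 0.0100% in Arid5b, 0.0150% in Vwc2, 0.0251% in Zbtb7c, 0.0451% in Btbd3, 0.0602% in Tox, 0.291% in Zic1 and 0.471% in Klf6. The others without a call were NERT 10, the 2 Pou3f1 groups, Flag-Pou3f1 (beside 2.44% of all genes, 1 member at an unadjusted p under 0.05) and Hey1 (beside 0.361%), which had 4 at an unadjusted p under 0.05 (Plxna4 0.82 ± 0.20, adjusted p = 0.0541, and 0.0421 with dim genes left out). Of the 2 Hey1 arrays, 1 is in batch 4, and without the 6 Hox-high arrays Plxna4 was 0.47 from YFP and not called. Plxna4 read 12.15 and 12.83 in Hey1, against 12.25 to 12.55 in CD2 YFP. The E3 lines entered no comparison. Sema5a read 7.50 and 7.41 in the E3 induced arrays, the lowest of all 68 arrays, against 9.42 in the single E3 parental array of batch 6. The E3 induced arrays are the whole of batch 0. Lists of dim genes were also low there: the mean level was 6.66 to 6.74 for V2 interneuron markers, 5.77 to 5.83 for pluripotency genes and 6.41 to 6.45 for endothelium and mesoderm, against 7.48 to 7.65, 6.42 to 6.48 and 7.29 to 7.52 in CD14 YFP. For these arrays batch and line cannot be told apart.

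Lines were ordered within a reporter by their fitted difference from YFP. Neighbours count here as apart where the gap exceeded the larger SE of the pair, each SE being that of a line's difference from YFP. The SE of the difference between the neighbours was not used. Most neighbouring lines were not apart. For Sema3d in CD14 cells the order from the low end was Pou3f1+DNLhx3, Pou3f1+Hoxc6 and then Pou3f1, each apart from the next, with the lines above Pou3f1 not apart from their neighbours. For Nrp1 in CD2 cells, Hoxc6 stood apart above Lhx3 at the top, and for Sema3a in CD2 cells Lhx3 stood apart above Hoxc6. For Plxna4 in CD2 cells, Lhx3 was lowest and apart from Hoxc6. Sema3e in CD2 cells had Klf5 apart above Pou3f1 at the top.

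The members did not all vary the same way. Over 66 arrays of 30 groups, after removing batch terms, Sema3d and Sema5a had a Pearson correlation of -0.77 and Sema5a and Plxna4 of -0.74. Nrp2 correlated with Plxna4 at 0.68 and with Sema3d at 0.66. These arrays share lines, batches and YFP controls, so the values describe this set of lines. Of all named genes, those most like Sema3d were Irx3 (0.89), Dach1 and Pkdcc (0.87 and 0.86). Those most like Sema5a were Zfp521 (0.92), Cttnbp2 and St3gal1 (0.89 each), and those most like Plxna4 were Prkce (0.92), Itga7 (0.88) and Tppp3 (0.86). For Nrp1 they were Cdh7 (0.79), Hoxc6 (0.79) and Smug1 (0.78), and for Nrp2 they were Uts2b, Lancl3 and Klhl13 (0.82 each). Sema3a went with Ptprd (0.72), Il6st (0.70) and Lhx3 (0.68), and Sema3c with Stat3 (0.79), Ppfia2 (0.78) and Sertm1 (0.77). Hoxc6 and Lhx3 are themselves induced in lines where Nrp1 and Sema3a were called. Their Spearman rank correlations with those members were 0.67 and 0.53. Sema3e went with Mgst3 (0.70), Nfkbie (0.69) and Bscl2 (0.68), and Plxna2 with Eda (0.72), Crybg3 and Gas2l3 (0.71 each).

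Other genes of the pathway were counted from lists. Among 12 other semaphorins, Sema5b, a relative of Sema5a, fell in 6 lines: by 0.88 in DNLhx3 (adjusted p = 0.000192), by 1.12 in Hoxc6 CD2 (adjusted p = 0.00282), by 1.11 in Pou3f1+DNLhx3 (adjusted p = 1.06e-05), by 1.84 in Pou3f1+Hoxc6 (adjusted p = 2.39e-10), by 1.18 in Pou3f1+Hoxa5 (adjusted p = 1.27e-05) and by 0.55 in Pou3f1+Lhx3 (adjusted p = 0.0491). It was called higher, at 0.95, in Notch1 ICD 10 (adjusted p = 0.00067). The members called in that line against YFP lost their calls without the 6 Hox-high arrays. Whether the Sema5b call also depends on those arrays was not tested. The alternative settings were examined for the members only. Calls of other genes, here and below, are those of the fit to all arrays. Sema4d, a membrane semaphorin, fell by 1.04 in DNLhx3 and by 0.90 in Pou3f1+DNLhx3. In DNLhx3 these were the 2 of 12 called, with a list median of -0.12 against -0.02 over all genes. Sema6a, a ligand of Plxna2 and Plxna4, rose by 0.80 in Lhx3 CD2 (adjusted p = 0.00109). Among the 3 other class 3 semaphorins, Sema3f, the ligand of Nrp2, fell by 0.51 in Notch1 ICD 30 (adjusted p = 4.36e-05) and by 0.54 in NERT 30 (adjusted p = 8.6e-05), and rose by 0.43 in Pou3f1 CD2 and by 0.42 in Pou3f1+Lhx3.

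Of 7 other plexins, Plxnd1, the receptor of Sema3e, rose by 2.23 in Notch1 ICD 30 (adjusted p = 1.61e-11) and by 1.94 in NERT 30 (adjusted p = 4.74e-09), and fell by 1.34 in Pou3f1+Lhx3 (adjusted p = 1.93e-05). Plxnc1, the receptor of Sema7a, rose in 9 lines, among them Pou3f1 CD2 by 1.05 (adjusted p = 1.29e-06) and Pou3f1 CD14 by 0.91 (adjusted p = 0.0016). Those lines share YFP arrays, so the count is not of independent events. In Notch1 ICD 30, 2 of 7 plexins rose and 1 fell, with a list median of 0.05 against -0.03 over all genes. Of 4 VEGF ligands that bind neuropilins, Vegfc and Pgf rose in Notch1 ICD 30 (1.35 and 1.66) and in NERT 30 (1.40 and 0.97). Of 10 co-receptors, the hepatocyte growth factor receptor Met fell by 1.33 in DNLhx3 and by 0.97 in Pou3f1+DNLhx3, and Chl1, an adhesion molecule that partners Nrp1, fell by 2.27 in Pou3f1+Hoxc6 (adjusted p = 1.31e-05) and by 2.04 in Pou3f1+Lhx3 (adjusted p = 9.97e-05). Of 20 signal transducers, Mical2, an actin oxidase, rose by 1.46 in Lhx3 CD2 (adjusted p = 0.00465) and fell by 1.42 in Pou3f1+Hoxc6 (adjusted p = 4.82e-06), and Mical1 rose by 1.03 in Notch1 ICD 30 (adjusted p = 6.96e-09).

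Markers of cell types moved in some of these lines. Of 9 motor neuron markers measured, 5 fell in DNLhx3 CD2 and 7 in Pou3f1+DNLhx3, and 6 fell in Notch1 ICD 30 and 7 in NERT 30. Beside these, the shares of all genes called in either direction were 4.09%, 4.00%, 6.07% and 4.70%, in that order. The list's mean level was 10.10 to 10.29 in DNLhx3, against 10.63 to 10.97 in CD2 YFP, and 9.71 to 9.80 in Pou3f1+DNLhx3, against 10.78 to 11.02 in CD14 YFP. It was 10.10 to 10.27 in Notch1 ICD 30 and 10.16 to 10.28 in NERT 30. Slc18a3, the vesicular acetylcholine transporter, read 12.00 to 12.83 in these 4 lines, against 12.80 to 13.24 in YFP. Of 10 progenitor and radial glia markers, none was called in DNLhx3 and 1 (Vim, lower) in Pou3f1+DNLhx3, while Hes5, a Notch target, rose in all 4 Notch1 ICD and NERT groups. The list's mean was 11.29 to 11.32 in Notch1 ICD 30, against 10.33 to 10.94 in CD2 YFP, and 11.26 to 11.33 in NERT 30, against 10.23 to 10.74 in CD14 YFP. In the Lhx3 lines the motor neuron list was above every YFP array, at 11.39 to 11.46 in Lhx3 CD2 and 11.21 to 11.37 in Pou3f1+Lhx3. That list holds Lhx3 itself, the 1 of 9 called higher in Lhx3 CD2, while in Pou3f1+Lhx3 Lhx3 and Mnx1 were higher and Tbx20 lower. It was 10.47 to 10.52 in Pou3f1+Hoxc6, with 3 of 9 lower and 2 higher. Floor plate and V3 markers lay below every YFP array in Pou3f1+Hoxc6, at 7.74 to 7.85, and in Pou3f1+Hoxa5, at 7.99 to 8.04, against 8.77 to 9.52 in CD14 YFP, with 2 of 5 and 1 of 5 called lower. These markers were below every CD14 YFP array in the other Pou3f1 lines too. They were at 8.20 to 8.23 in Pou3f1 alone, 8.02 to 8.61 in Flag-Pou3f1, 8.34 in Pou3f1+DNLhx3 and 8.47 to 8.58 in Pou3f1+Lhx3. In CD2 cells, the markers were below every YFP array in Pou3f1 (8.07 to 8.28), Sfmbt2 (8.60 to 8.69), Klf6 (8.57 to 8.62) and Zbtb7c (8.44 to 8.73). The same held for the markers in Hoxc6 (8.37 to 8.83), Hey1 (8.25 to 8.97), Arid5b (8.91 to 8.92) and Notch1 ICD 10 (8.72 to 8.80). They were also low in Notch1 ICD 30 (7.84 to 8.12, against 8.98 to 9.68 in CD2 YFP) and NERT 30 (8.38 to 8.48), with 3 of 5 called lower in each. Progenitor markers were at 9.84 to 9.86 in Pou3f1+Hoxc6 and 9.72 to 9.95 in Pou3f1+Hoxa5, where Nes and Fabp7 fell. V2 interneuron markers were at 8.67 to 8.68 in Notch1 ICD 30, against 7.56 to 7.99 in CD2 YFP, and at 8.35 to 8.42 in NERT 30, against 7.48 to 7.65 in CD14 YFP, with Gata3 and Tal1 called higher in both. The part of these markers in the member values was not tested.

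The induced genes did not all pass in their own lines. Lhx3 rose by 3.31 in Lhx3 CD2 and 3.89 in Pou3f1+Lhx3, Hoxc6 by 3.03 in Hoxc6 CD2, and Klf5 by 3.27. Pou3f1 rose by 1.09 in Pou3f1 CD2 and was 0.45 higher in Pou3f1 CD14 without passing (adjusted p = 0.583), and Lhx3 was not called in the DNLhx3 lines (0.33 and 0.60). Whether the array's probes lie within each transgene was not checked. A gene not called here therefore does not show that its transgene was not induced. Hoxa5 was not called in Hoxa5 CD2 (1.17, adjusted p = 0.323), where the batch 5 array read 10.59, against 10.80 in the Zic1 array and 11.80 and 12.07 in the Hoxc6 arrays of that batch. It rose by 1.66 in Pou3f1+Hoxa5 (adjusted p = 0.00323), and by 2.77 in Pou3f1+Hoxc6 and 1.88 in Pou3f1+DNLhx3, so its level does not set the lines labelled Hoxa5 apart.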

How the data were processed

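Total RNA of 68 samples was read on Affymetrix mouse gene arrays. The deposited values are log2 expression values made with RMA in oligo, per the submitters' processing notes. The arrays' annotation gave 19938 genes 1 symbol and a cluster, the brightest cluster standing for a gene with several. Groups, batches and replicate numbers came from the labels. Differences were fitted with limma 3.58.1 (R 4.3.3) in 1 model over all arrays, with group and batch as terms (31 residual degrees of freedom), two-sided, with Benjamini-Hochberg adjustment over all 19938 genes and a threshold of 0.05. The model was tested on simulated data. E3 groups were not compared. Genes named are the 9 members, up to 4 called genes of a pathway list per comparison, the 3 most correlated genes per member, and induced or marker genes where a result turns on them. The members and lists were chosen with earlier results of these data known. The number of arrays limits the precision. Alternatives were no batch term, reporters fitted apart, same-batch YFP, 6 batch 4 arrays left out, a filter on dim genes, a second quantile normalization, a replicate block and each array left out.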

Additional observations from a re-analysis of the deposited data

Results flagged for a closer look

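Sema3d in the 4 Pou3f1 CD2 arrays had 1 array far from the others. The lowest array, in batch 1, read 9.94 and the other 3 read 10.79 to 10.82, so that its gap to the nearest was 0.960 of the group's range, above Dixon's critical value for 4 arrays. Among 27 such tests of members in groups of 4 arrays this was 1 flag, and chance flags about 1 in 20.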

How the results depend on the processing

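Of the 58 member calls, all kept their call with dim genes left out, as did 56 with a second quantile normalization and the 42 that could be fitted with same-batch YFP alone. Without a batch term, 27 kept their call, 29 lost it and 2 reversed (Sema5a in Notch1 ICD 10 at 0.0460 and Plxna4 in Notch1 ICD 10 at -0.12), and the cause was not tested. That setting gave 19 calls against YFP (33 with the batch term) and 12 between lines (25 with it). Fitting the reporters apart gave 43 against YFP and 41 between lines, with 12 of the 58 calls lost and 38 gained. Without the 6 batch 4 arrays there were 40 and 30 calls, with 10 lost and 22 gained. Leaving out 1 array at a time gave 28 to 38 calls against YFP and 19 to 30 between lines. The Pou3f1 difference between reporters gave 0 calls by limma in each setting that could be fitted, the reporters fitted apart not being one, and 0 to 0 with arrays left out. With the replicate block, 21 of 28 calls in 24 comparisons with YFP and 19 of 22 in 8 comparisons between lines were kept, 10 were lost (Sema5a in Lhx3 CD2 at 0.47, adjusted p = 0.8) and 7 gained (among them Sema3e in Pou3f1 CD2 at 0.60, adjusted p = 0.0156), so that 25 and 22 calls were counted. It could not be fitted for H4, Klf5 and Pou3f1+Lhx3. Same-numbered arrays correlated at -0.14 to 0.28 over 11 groups of 2 numbers, so the numbers were not taken as pairs. The alternative of a second cluster per gene was not run, since each member has 1 cluster. Leaving out arrays changes the residual degrees of freedom as well as the samples.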
